A study of Mus musculus with 6 samples.

Results

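The cholesterol synthesis genes examined here were 8 enzymes that span the pathway from its entry to its last step: Hmgcs1, Idi1, Fdps, Fdft1, Sqle, Lss, Cyp51 and Dhcr7. They were taken by name, as every probe set whose platform annotation gives 1 of these symbols and no other, which found 20 of the 22626 probe sets and all 8 genes among the 12393 genes so annotated. The arrays hold lung RNA from ob/ob mice that received leptin (3 arrays) or saline (3 arrays), all females of the strain B6.V-Lepob/J at about 1 month of age. Both groups carry the ob mutation in every cell and make no functional leptin, the hormone of fat cells, and each array holds the lung of 1 animal. The question is what supplying the hormone does to lung transcripts. The sources used here do not give the dose, route or duration of the leptin treatment.

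Cells build cholesterol from acetyl-CoA through mevalonate, isoprenoid diphosphates, squalene and lanosterol. The enzymes are transcribed largely under the membrane-bound factor SREBP-2, which is released when sterols run low in the endoplasmic reticulum, so that their transcripts tend to move as a group. In the lung, alveolar type II cells make surfactant, whose lipid film contains cholesterol beside phosphatidylcholine, and take part of that cholesterol from plasma lipoproteins.

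The promoter of Hmgcs1 is shown because it holds the sterol response motif that SREBP factors are known to bind. That of Cyp51, a later enzyme of the same pathway, is shown because its window has no exact match to the core letters searched. Promoters of 5 of the 8 genes (Hmgcs1, Idi1, Lss, Cyp51 and Dhcr7) were matched by symbol in RefSeq (GRCm38.p6), and the 250 bases before the annotated start were searched on both strands for 3 motifs: a sterol regulatory element core with the letters TCACNCCAC, the box CCAAT that NF-Y binds, and the GC box that Sp1 binds, GGGCGG. Capitals mark the sterol element core and the CCAAT boxes, also where the box lies on the other strand and reads as its reverse complement, ATTGG.
Hmgcs1, chr13:119690101-119690350, + strand: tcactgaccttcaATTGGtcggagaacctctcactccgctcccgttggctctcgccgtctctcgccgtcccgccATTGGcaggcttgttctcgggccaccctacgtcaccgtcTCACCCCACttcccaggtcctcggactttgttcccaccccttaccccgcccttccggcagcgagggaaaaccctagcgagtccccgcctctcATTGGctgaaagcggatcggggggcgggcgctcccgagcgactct
Cyp51, chr5:4104698-4104947, - strand: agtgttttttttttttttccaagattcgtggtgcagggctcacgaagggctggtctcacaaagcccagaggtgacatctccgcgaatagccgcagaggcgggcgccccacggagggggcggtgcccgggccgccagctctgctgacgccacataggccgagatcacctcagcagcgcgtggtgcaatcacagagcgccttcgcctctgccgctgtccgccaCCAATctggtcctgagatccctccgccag
The Hmgcs1 window held 1 sterol element core, from 137 to 129 bases before the start, with 3 CCAAT boxes and 2 GC boxes. The Cyp51 window held 1 CCAAT box and 1 GC box. No sterol element core was found in the windows of Idi1, Lss or Dhcr7. The search took exact letters only, so variant forms of the element would be missed, in Cyp51 and in these windows alike. Of 32851 such windows in the table, 1.05% held the core, 33.85% a CCAAT box and 32.74% a GC box.

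Saline replicate 1 is given apart throughout, because its array was unlike the rest. Across probe sets its log2 values had a correlation of 0.438 to 0.447 with the other 5 arrays, which among themselves reached at least 0.973, and its control probe sets, spiked-in and housekeeping together, were at a median 13.2 times the mean of the other arrays. Of the 20 probe sets of the cholesterol genes it was the highest array in 9, the lowest in 7 and within the range of the others in 4. Its ratio to the mean of the other saline arrays ran between 0.134 for Sqle and 547 for a dim Fdps probe set. Markers of lung epithelium were bright on the other 5 arrays, with a summed intensity of alveolar type II markers between 98976 and 111444 with leptin and between 112888 and 112924 with saline.

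**Figure D1:**
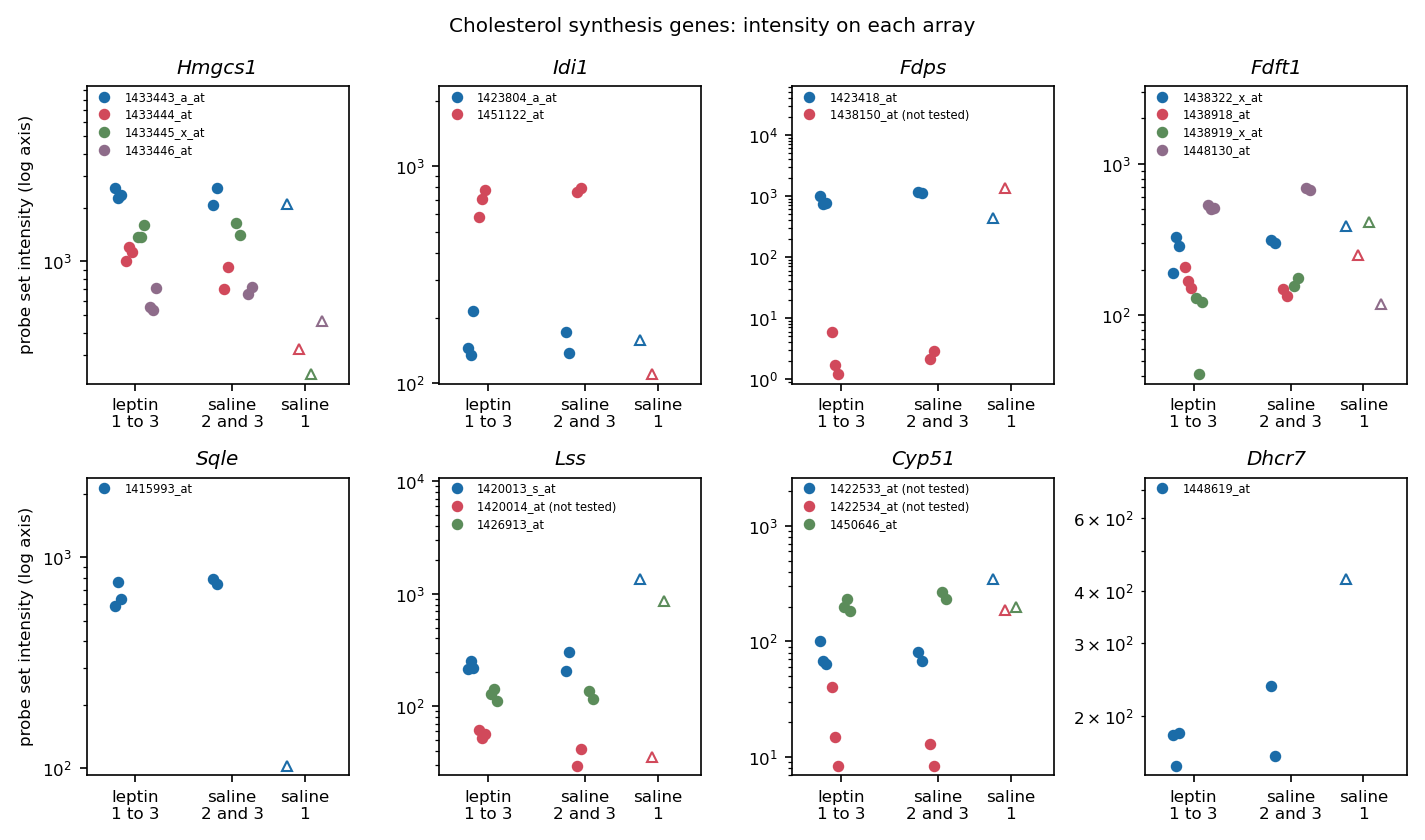
Intensity of each of the 20 probe sets (log axis, 1 panel per gene, 1 colour per probe set) on the leptin arrays, on saline replicates 2 and 3, and on saline replicate 1 (open triangles). Saline replicate 1 departs from the other saline arrays in both directions, as for Sqle at 102.8 and Lss at 1346.

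Without saline replicate 1, the enzymes as a group lay slightly lower with leptin and none of them passed the test. The brightest probe set of 7 of the 8 genes was lower with leptin, from -0.12 for Lss to -0.47 for Fdps on the log2 scale, and that of Hmgcs1 was at 0.06. The median over the 8 genes was -0.20, whereas it was -0.01 over all 9365 genes tested, of which 51.7% lay below 0. The 8 genes were chosen with earlier results of these data known, so these counts describe them and are no independent test. With 1 more array left out, 6 or 7 of the 8 were below 0, and Hmgcs1, Lss and Dhcr7 each turned sign at least once. The 3 leptin arrays did not overlap the 2 saline arrays for 3 of the 8 (Fdps, Fdft1 and Cyp51), all lower, and for none of the 8 with leptin higher, where 10.4% of all genes were lower and 9.5% higher without overlap. After adjustment over all 15838 probe sets tested, 0 of the 16 tested probe sets of these genes passed the threshold of 0.05 (limma adjusted p = 1.00 for each), against 0.0442% of all probe sets. At an unadjusted p under 0.05 there were 3 of the 16 (1 Hmgcs1 probe set higher, the brightest of Fdps and of Fdft1 lower), against 4.6% of all probe sets. That count was 0 without saline replicate 2 and 1 without saline replicate 3.

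Hmgcs1 makes HMG-CoA, the substrate of the enzyme that limits the rate of the pathway. Its brightest probe set read 2581.0, 2269.9 and 2360.0 with leptin against 2066.0 and 2570.1 in saline replicates 2 and 3 (2098.6 in saline replicate 1). The leptin arrays all lay between the saline arrays or just above them, and the log2 difference was 0.06 ± 0.14 (SE; 95% interval -0.24 to 0.36). A second probe set, 1433444_at, read 1011.4, 1200.8 and 1133.0 with leptin against 705.7 and 933.1 in saline replicates 2 and 3 (323.1 in saline replicate 1). Here every leptin array was above every saline array, at 0.44 ± 0.16 (95% interval 0.09 to 0.80; limma adjusted p = 1.00), and at 0.25 without saline replicate 2. The other 2 Hmgcs1 probe sets had overlapping groups and lay at -0.07 and -0.19. The 4 probe sets of this gene thus gave no single direction, and the differences between them were not tested.

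Idi1 interconverts the pair of isoprenoid units from which all later intermediates are built. Its brightest probe set read 581.0, 710.1 and 780.9 with leptin against 764.3 and 797.2 in saline replicates 2 and 3 (109.8 in saline replicate 1). The groups overlapped, and the log2 difference was -0.18 ± 0.16 (SE; 95% interval -0.53 to 0.17). The dimmer probe set was at 0.06 ± 0.25, with overlapping groups.

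Fdps joins these units into farnesyl diphosphate, the branch point between sterols and the isoprenoids used for protein prenylation. It read 993.9, 736.1 and 759.1 with leptin against 1158.1 and 1131.3 in saline replicates 2 and 3 (433.3 in saline replicate 1). All 3 leptin arrays were below both of these saline arrays, and the reading of saline replicate 1 was below all of them. The mean was 830 ± 143 (SD, n = 3) in the leptin group, against 1145 ± 19.0 (SD, n = 2) in these saline arrays. The log2 difference was -0.47 ± 0.16 (SE; 95% interval -0.82 to -0.11), a ratio of 0.724, and ran from -0.60 to -0.39 when 1 more array was left out. A second probe set, 1438150_at, read 5.8, 1.7 and 1.2 with leptin against 2.1 and 2.9 with saline, below the filter on dim probe sets, but 1366.9 on saline replicate 1.

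Fdft1, squalene synthase, takes the first step that leads to sterols alone, and its 4 probe sets disagreed. The brightest, 1448130_at, read 537.0, 501.4 and 515.0 with leptin against 696.7 and 671.6 in saline replicates 2 and 3 (119.1 in saline replicate 1). The leptin arrays were close to each other and all below saline replicates 2 and 3, with means of 517.8 ± 17.96 (SD, n = 3) in the leptin group and 684.2 ± 17.75 (SD, n = 2) in those saline arrays. The log2 difference was -0.39 ± 0.14 (SE; 95% interval -0.70 to -0.07) and lay between -0.41 and -0.36 with any further array left out. The probe set 1438919_x_at read 131.1, 40.9 and 123.4 with leptin against 156.1 and 176.6 in saline replicates 2 and 3 (413.3 in saline replicate 1). It was also lower without overlap, at -0.75 ± 0.37, and moved to -0.33 without leptin replicate 2, its lowest array. By contrast 1438918_at read 207.1, 169.1 and 151.6 with leptin against 148.8 and 133.5 in saline replicates 2 and 3 (250.9 in saline replicate 1). It was higher without overlap, at 0.27 ± 0.22 (95% interval -0.21 to 0.75). The fourth, 1438322_x_at, read 191.6, 331.0 and 286.3 with leptin against 315.4 and 301.9 with saline, which overlapped, and was at -0.21 ± 0.22, or -0.0030 without leptin replicate 1. In the naming of these arrays the suffix x marks probe sets some of whose probes match other transcripts as well. Of the 16 tested probe sets of the pathway's 8 genes, those without overlap were 4 lower and 2 higher, against 9.66% lower and 9.92% higher of all probe sets.

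**Figure D2:**
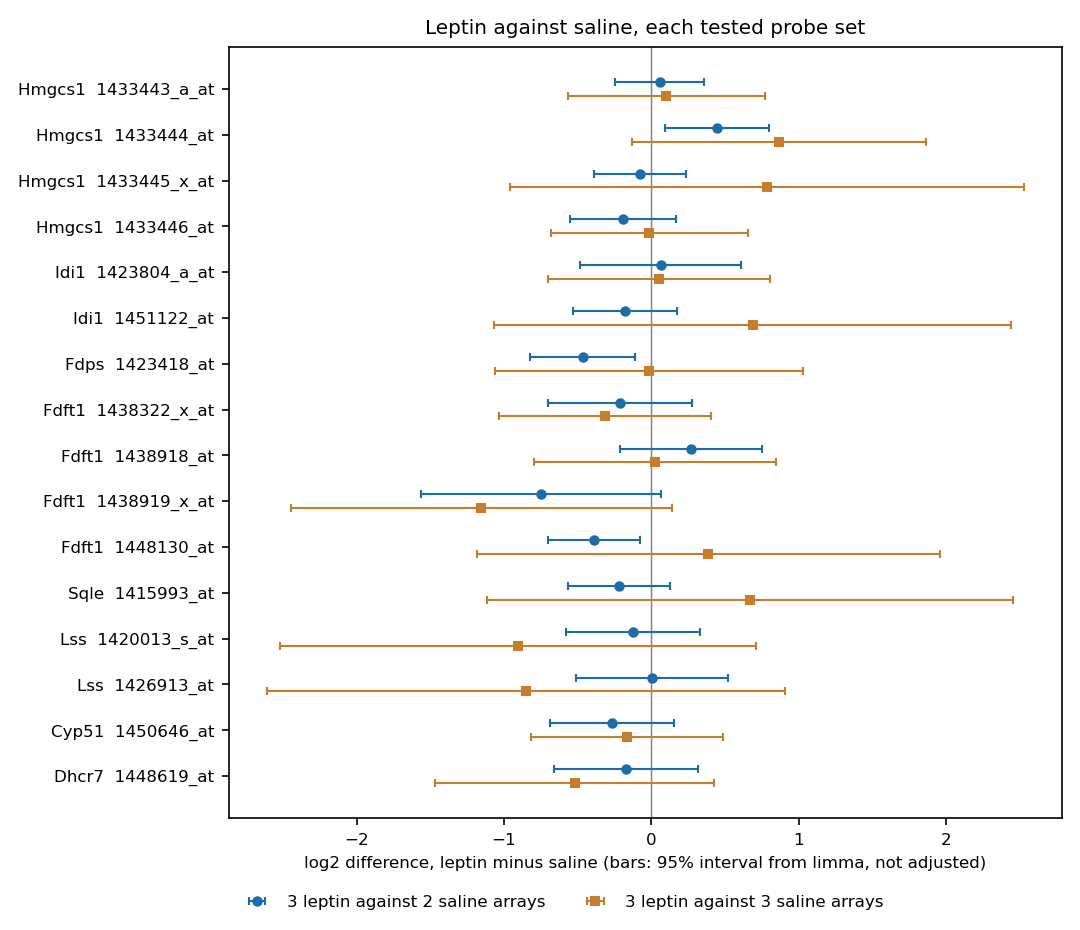
Log2 difference, leptin minus saline, of the 16 tested probe sets with 95% intervals from limma, for 3 leptin against 2 saline arrays (circles) and 3 leptin against 3 saline arrays (squares). The Fdft1 probe sets lie on both sides of 0, from -0.75 to 0.27 on 5 arrays, and the intervals with saline replicate 1 included are wider for all 16.

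Sqle, squalene epoxidase, catalyses the first oxygen-dependent step and is a second point of control of the pathway. Its probe set read 584.0, 761.2 and 635.0 with leptin against 786.4 and 746.9 in saline replicates 2 and 3 (102.8 in saline replicate 1). The highest leptin array lay between the saline arrays, and the difference was -0.22 ± 0.16 (SE; 95% interval -0.56 to 0.13). Lss closes the squalene epoxide into lanosterol, the first sterol ring system. Its brightest probe set read 212.0, 250.7 and 217.8 with leptin against 205.1 and 300.4 in saline replicates 2 and 3 (1346.0 in saline replicate 1). The leptin arrays lay inside the range of the saline arrays, at -0.12 ± 0.21 (95% interval -0.58 to 0.33), and the difference was at 0.13 without saline replicate 3. A second Lss probe set was at 0.0043 ± 0.23. The third, 1420014_at, was dim and not tested, and read 61.1, 51.7 and 56.7 with leptin against 29.6 and 41.7 with saline.

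Cyp51 removes a methyl group from lanosterol, and Dhcr7 reduces the last precursor to cholesterol. The Cyp51 probe set 1450646_at read 197.7, 231.2 and 182.1 with leptin against 265.5 and 232.7 in saline replicates 2 and 3 (196.7 in saline replicate 1). The leptin arrays were below saline replicates 2 and 3, the highest of them by a narrow margin, at -0.27 ± 0.19 (SE; 95% interval -0.69 to 0.15). The other 2 Cyp51 probe sets were below the filter, with overlapping groups. They read 64.3 to 100.5 with leptin and 68.3 to 81.4 with saline, and 8.4 to 40.6 with leptin and 8.4 to 13 with saline. Dhcr7 read 180.3, 152.0 and 182.1 with leptin against 236.9 and 160.4 in saline replicates 2 and 3 (427.0 in saline replicate 1). Its groups overlapped, at -0.17 ± 0.22 (95% interval -0.66 to 0.32), and it was at 0.08 without saline replicate 2. For the brightest probe sets of the 8 genes, the 95% intervals reached no lower than -0.82 and no higher than 0.36 on the log2 scale.

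Averaged over the brightest probe sets of the 8 genes, the deviation from each gene's own mean was -0.09, -0.07 and -0.10 on leptin replicates 1 to 3 and 0.13 and 0.13 on saline replicates 2 and 3. The leptin mean of this average was lower by 0.22 on the log2 scale, a ratio of 0.859, and the arrays of a group lay close together. Single genes were less uniform. On the leptin arrays 2, 3 and 2 of the 8 genes were above their own mean, and on saline replicates 2 and 3 it was 6 and 7. Saline replicate 1 was at -0.62, with genes between -2.53 for Sqle and 2.41 for Lss. No p-value was computed for this average, which rests on 5 arrays.

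**Figure D3:**
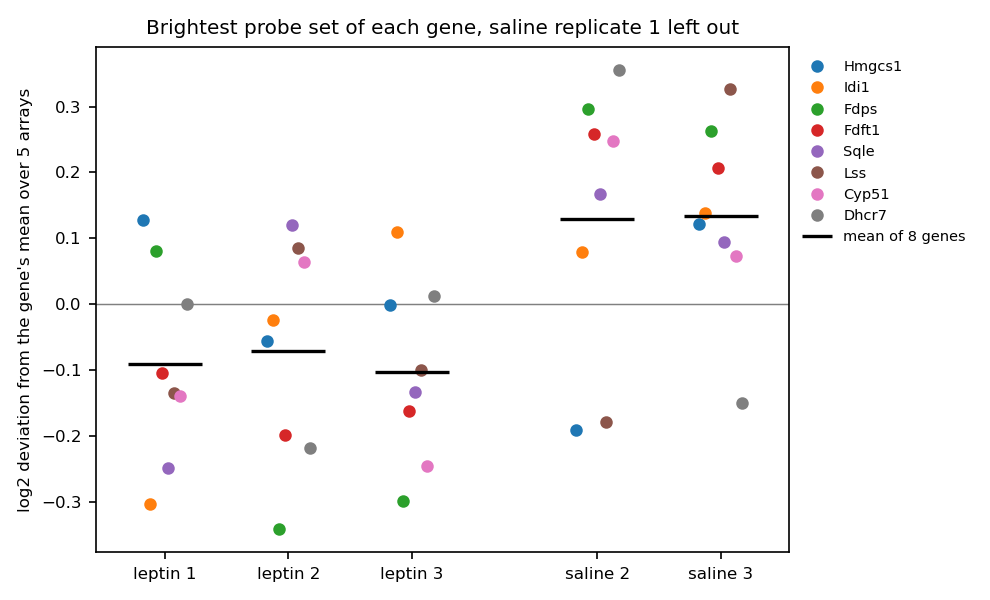
Log2 deviation of the brightest probe set of each gene from its mean over 5 arrays (dots, 1 colour per gene) on leptin replicates 1 to 3 and saline replicates 2 and 3, with the mean of the 8 genes as a bar. The bars lie between -0.10 and -0.07 on the leptin arrays and at 0.13 on both saline arrays, while Hmgcs1, Lss and Dhcr7 each have a saline array among their lowest values.

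With saline replicate 1 included, the comparison as the series designed it, the enzymes showed no common direction. The median over the 8 genes was 0.04, against 0.02 over all genes tested, with 4 genes above 0 and 4 below, where 49% of all genes lay below 0. Sqle, Idi1 and Fdft1 were then higher with leptin, at 0.67 ± 0.74, 0.69 ± 0.73 and 0.39 ± 0.65, since they read low on saline replicate 1, and Lss and Dhcr7 were lower, at -0.90 ± 0.67 and -0.52 ± 0.39, since they read high on it. Fdps was at -0.01 ± 0.43. The interval of Sqle ran from -1.12 to 2.45, so that on these 6 arrays a change of the transcript by a factor of 2 in either direction could not be told from no change. Of the 16 probe sets tested here, 0 passed the adjusted threshold (limma adjusted p from 0.715 to 0.986) and 0 were at an unadjusted p under 0.05, against 0% and 0.385% of all probe sets. The rule stated by the series (at least 1.5-fold, p under 0.05, and 6 of 9 pairwise comparisons) was met by 0 of the 16, against 0.202% of all probe sets, and on 5 arrays also by 0, against 0.492%.

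Other enzymes of the pathway were mostly on the same side on the 5 arrays. Of the 14 listed, 11 had a probe set with a single symbol and all 11 were tested. The brightest probe set was below 0 in 9 of the 11, with a median of -0.15, and 0 passed the adjusted or the unadjusted threshold. Nsdhl and Sc5d, which act on the sterol ring after Cyp51, were at -0.24 ± 0.16 and -0.21 ± 0.15, and Ebp, a sterol isomerase, at -0.13 ± 0.13, each without overlap between the groups. Nsdhl read 653.7, 721.4 and 551.7 with leptin against 739.0 and 782.6 with saline. The mevalonate enzymes Mvk and Mvd were at -0.49 ± 0.39 and -0.24 ± 0.20. Ggps1, which makes the geranylgeranyl chain on the prenylation branch and not a sterol, was at -0.15 ± 0.16. Hsd17b7 was at -0.22 ± 0.20, Tm7sf2 at -0.06 ± 0.19 and Lbr at -0.02 ± 0.14. Mvk, the value of this list farthest from 0, was at -0.064 without saline replicate 2, at -0.077 without leptin replicate 1 or with the replicate block, and at -0.91 without saline replicate 3. Msmo1, a sterol methyl oxidase, was at 0.27 ± 0.22, with 500.7, 367.7 and 488.6 with leptin and 282.8 and 476.4 with saline, but at -0.084 without saline replicate 2. Pmvk, a mevalonate enzyme, was at 0.10 ± 0.20, and at -0.055 without leptin replicate 2. With 1 more array left out, 4 of the 11 (Msmo1, Pmvk, Tm7sf2 and Lbr) turned sign at least once, and between 8 and 11 of the 11 were below 0. A dimmer Sc5d probe set was at 0.41 ± 0.21, higher without overlap and so opposite to the brighter one. Over the 8 genes and these 11 together, 16 of 19 were below 0, Ggps1 of the prenylation branch among them, against 51.7% of all genes. Lower without overlap were 6 of the 19, against 10.4% of all genes. The 8 genes and this list were chosen with earlier results of these data known. With saline replicate 1 included, 5 of the 11 were below 0.

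**Figure D4:**
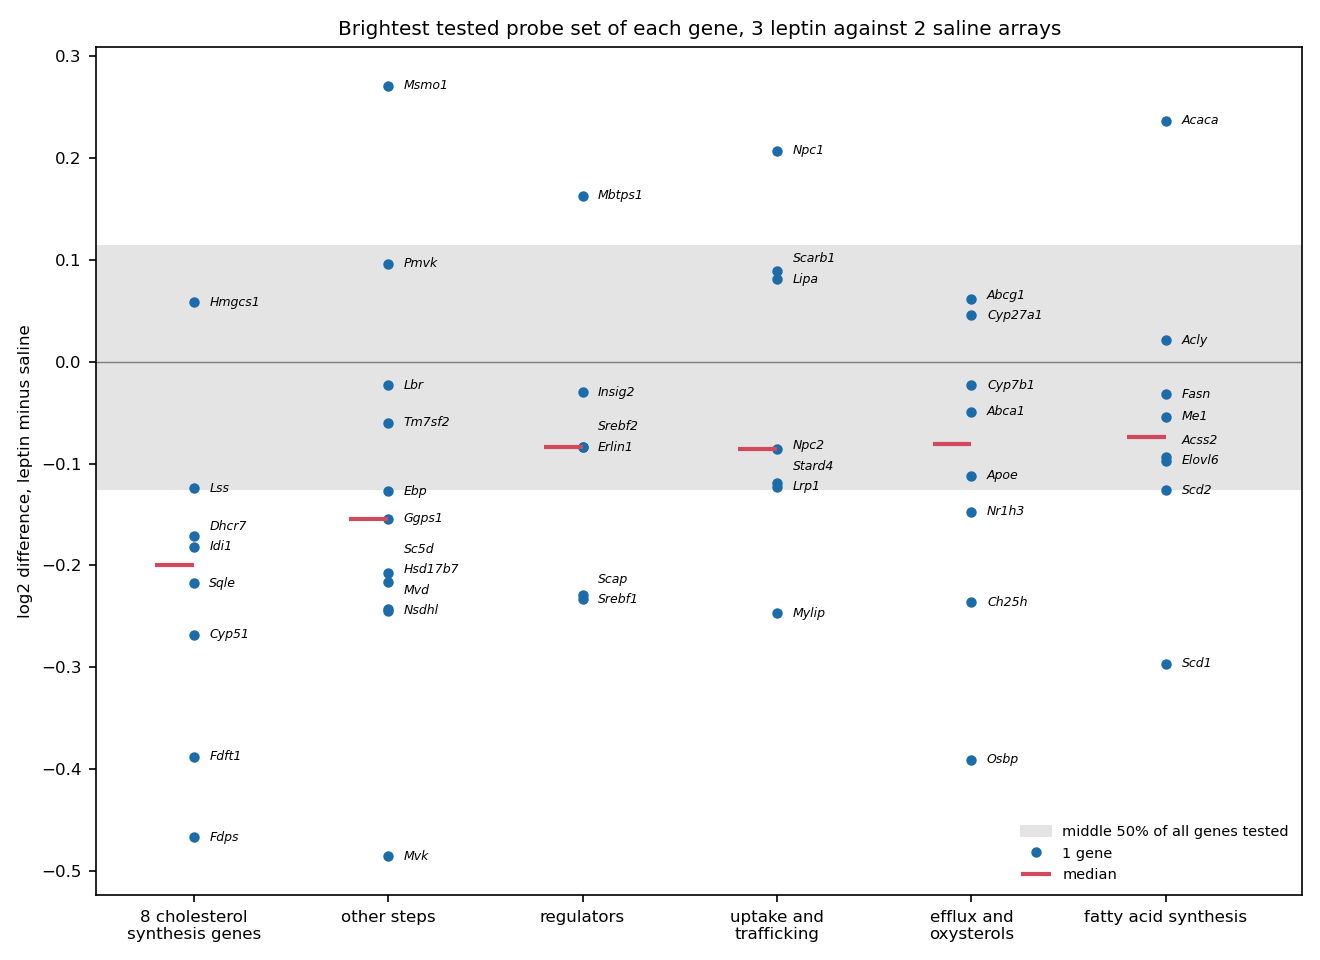
Log2 difference, leptin minus saline, of the brightest tested probe set of each gene on 3 leptin and 2 saline arrays, by gene list, with the median of each list (bar to the left of the dots) and the middle 50% of all genes tested (grey band). The 8 cholesterol synthesis genes have a median of -0.20 and the other steps of the pathway -0.15, and the median of each of the other 4 lists lies inside the band.

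Of the 6 regulators of the pathway tested, 5 were below 0, against 51.7% of all genes, with a median of -0.08, and 0 passed either threshold. Srebf2, which encodes SREBP-2, was at -0.08 ± 0.20 on its brightest probe set, at 0.14 there without saline replicate 2, and at 0.21 ± 0.15 on its other probe set, with overlapping groups on both, so that it had no settled direction. Without any 1 of the 5 arrays, 4 of the 6 regulators were below 0. Srebf1, which encodes the related factor of fatty acid synthesis, was at -0.23 ± 0.13 and Scap, the sterol-sensing escort of both, at -0.23 ± 0.15, each lower without overlap. Mbtps1, the protease that makes the first cut of the SREBP precursors, was at 0.16 ± 0.12, higher without overlap. Of all genes, 10.4% were lower and 9.5% higher without overlap. Of the 7 genes of cholesterol uptake and trafficking, 4 were below 0 (median -0.09), or 2 without saline replicate 3, and 0 passed either threshold. The smallest p-values there belonged to Mylip, which marks the LDL receptor for degradation, at -0.25 ± 0.18, Npc1, which exports cholesterol from lysosomes, at 0.21 ± 0.17, and Lrp1, an endocytic receptor, at -0.12 ± 0.14.

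Among the genes of efflux and oxysterols 6 of 8 were below 0 (median -0.08). Of all genes, 51.7% were below 0 and 10.4% were lower without overlap. Osbp, an oxysterol binding protein, read 1438.6, 1849.9 and 1764.7 with leptin against 2352.2 and 2062.9 with saline, lower without overlap at -0.39 ± 0.15 (limma adjusted p = 1.00). Apoe and Ch25h were at -0.11 ± 0.12 and -0.24 ± 0.25, and the exporters Abca1 and Abcg1 at -0.05 ± 0.14 and 0.06 ± 0.14. Of the 8 fatty acid synthesis genes 6 were below 0 (median -0.07), against the same 51.7% of all genes. Scd1, the desaturase that makes oleate, read 11687.2, 12553.6 and 12340.5 with leptin against 14895.0 and 15058.3 with saline, at -0.30 ± 0.10 (limma adjusted p = 0.970), and its dimmer probe set was at -0.57 ± 0.17 (limma adjusted p = 0.914). The dimmer of both Me1 probe sets, for the malic enzyme that supplies NADPH, was at -0.52 ± 0.14 (limma adjusted p = 0.763), and the brighter at -0.05 ± 0.13. Acaca and Scd2 were at 0.24 ± 0.20 and -0.13 ± 0.12. With saline replicate 1 included, Osbp, Scd1 and the dimmer Me1 probe set were at 0.71, 0.49 and 0.49, since each read low on that array.

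The patterns most like the mean profile of the 8 genes over the 5 arrays were those of Deptor, Trim33, Rac3, Rab3d and Irf8, with a root mean square distance between 0.0063 and 0.025 on the log2 scale, out of 13010 probe sets with at least the range of that profile.

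Cell type markers were measured beside these values on the 5 arrays, and in bulk RNA fewer cells of a type and less RNA per cell cannot be told apart. The summed intensity of 7 alveolar type II markers was lower with leptin without overlap (98976 to 111444, against 112888 to 112924 with saline), with 5 of the 7 below 0 and a median of -0.10. Singly, 1 of the 7 was lower without overlap and 0 were higher. The sum of 4 club cell markers was also lower without overlap (73421 to 79558 with leptin, 81480 to 82058 with saline), with 4 of 4 below 0 and a median of -0.09. Singly, 3 of the 4 were lower without overlap and 0 were higher. Of 5 tested macrophage markers 5 were above 0 (median 0.12), with overlapping sums of 6621 to 8285 with leptin and 5963 to 7766 with saline. Sums also overlapped for alveolar type I markers (40375 to 47368 with leptin, 46255 to 46589 with saline). The same held for endothelial markers (15900 to 17886, against 15747 to 16006) and heart muscle markers (7608 to 11158, against 9622 to 10756). Of all single genes, 10.4% were lower and 9.5% higher without overlap, and no such share was computed for sums. The 4 fat cell markers summed to 2209 to 2803 with leptin and 2177 to 2195 with saline, higher without overlap by a narrow margin. Of the 3 that were tested, 2 were above 0 (median 0.12), and only 1 was singly higher without overlap. Ucp1 of brown fat was at 5.3 to 13.4 with leptin and 8.7 to 9.8 with saline. The 5 erythroid markers summed to 4649 to 6080 with leptin and 11015 to 13627 with saline, with 5 of 5 below 0 and a median of -1.16. Alas2, which starts heme synthesis in red cell precursors, Slc25a37, which carries iron into mitochondria, and Bpgm, which makes the 2,3-bisphosphoglycerate of red cells, fell with leptin, at -1.20 ± 0.15, -1.20 ± 0.14 and -1.16 ± 0.16 (limma adjusted p = 0.0496 for each). Probe sets of these genes were 4 of the 7 in the whole series that passed. Of these 3 calls, 1 (Alas2) stood without leptin replicate 2 or 3, and 0 without leptin replicate 1, saline replicate 2 or saline replicate 3, with the replicate block or with saline replicate 1 included. The 3 hepatocyte markers summed to 298 to 373 with leptin and 415 to 423 with saline. Only 1 of them, Alb, passed the filter on dim probe sets, at -0.21 ± 0.17. The part of any of these cell types in the values of the cholesterol synthesis genes was not tested.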

How the data were processed

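The 6 lung samples were measured on Affymetrix Mouse 430A arrays after repeated rounds of amplification, per the labels' protocols. The deposited table holds 1 linear intensity value per probe set and array, and no source used here names its software or summary method. A mean without the lowest and highest 2% was 500.1 on every array, which shows a scaling by the authors before deposit. Of 22690 probe sets 64 controls were left out. The platform annotation gave 1 symbol for 20380, several for 691 and none for 1555. RefSeq (GRCm38.p6) changed 0 symbols. As no build is named for the array values, coordinates are given only for the promoter sequences, in the build of their RefSeq table.

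A pseudocount of 22, the 10th percentile of the table, was added to each intensity before log2 was taken, so that differences of dim probe sets are understated. Without the 30% of probe sets lowest in mean log2 value, 15838 remained for limma 3.58.1 in R 4.3.3 (trend, two-sided, leptin minus saline, Benjamini-Hochberg over all), on 5 arrays without saline replicate 1 and on 6 arrays. Intervals are limma's 95% intervals, not adjusted. A gene is stood for by its brightest tested probe set. The 2-sample test with pooled variance stands in for the unnamed test of the series' rule, which asks for 4 of 6 pairs on 5 arrays. The fits were tested on simulated data. All simulated arrays had the spread seen on the 5 arrays, so an array like saline replicate 1 was not covered. The members and lists were chosen with earlier results of these data known. Genes of the other pathway lists are named where past the adjusted threshold, otherwise the 3 of smallest p, and other steps of the pathway in full. Marker lists are given by sums and counts, with the genes past the threshold named. Further genes (Abca1, Abcg1, Srebf2, Scd2 and the dimmer Sc5d and Me1 probe sets) were chosen after their values were seen.

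Leptin and saline arrays of the same number deviated together from their group means (correlations of 0.103 to 0.144 across probe sets, against -0.147 to 0.0491 for different numbers). The saline group mean held saline replicate 1, which is unlike the other arrays and weighs on these correlations. They therefore cannot show whether the numbers are pairs, and no label states a pairing. Only the block alternative treats the numbers as pairs. Each label gives 1 animal per sample, and the precision is set by how few arrays there are. The alternatives tried were a common median, quantile normalization, a pseudocount of 1 or 79.9, a filter at 50% or none, the replicate block, array weights, no trend, averaging the probe sets of a gene, the series' rule and leaving out each array.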

Additional observations from a re-analysis of the deposited data

How the results depend on the processing

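Under all alternatives run, on 5 and on 6 arrays, 0 probe sets of the 8 genes passed the adjusted threshold, the replicate block included. On 5 arrays leptin replicate 1 has no saline array of its number. The block there gives the same log2 differences as leaving that array out, and is not a separate check of them. On 5 arrays the erythroid genes past it, 3, were 0 with the replicate block and with saline replicate 1, and from 0 to 1 when 1 array was left out, alternatives chosen after seeing the data. On 5 arrays the median of the 8 genes, -0.20, was -0.21 with a common median, -0.18 with a pseudocount at the 25th percentile and -0.17 with the replicate block, and ran from -0.30 to -0.17 when 1 array was left out. Counted at an unadjusted p under 0.05, 3 probe sets became 4 with the replicate block, 0 without saline replicate 2 and 1 without saline replicate 3. On 6 arrays the median, 0.04, ran from -0.20 to 0.20 when 1 array was left out, with -0.20 without saline replicate 1, and was -0.22 with array weights, where saline replicate 1 weighed 0.0257 and each other array between 1.64 and 2.98. With these weights 4 probe sets were at an unadjusted p under 0.05.

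Of single probe sets, Lss 1426913_at turned to -0.017 with quantile normalization, -0.011 with a common median and -0.0050 with the replicate block on 5 arrays. On 6 arrays Hmgcs1 turned to -0.048 and Fdps to 0.13 with quantile normalization, Fdps to 0.13 with a common median, and Idi1, Fdft1 and Sqle to -0.15, -0.39 and -0.19 with array weights. When 1 array was left out on 5 arrays, Hmgcs1 ran from -0.10 to 0.21 and from -0.19 to 0.037 for its brightest and its x probe set, Idi1 1423804_a_at from -0.12 to 0.21, Lss from -0.38 to 0.13 and from -0.10 to 0.11, Dhcr7 from -0.42 to 0.081, Mylip from -0.54 to 0.042 and Ch25h from -0.58 to 0.11. On 6 arrays Fdps ran from -0.47 to 0.22, Idi1 from -0.18 to 1.14, Fdft1 from -0.39 to 0.79 and Sqle from -0.22 to 1.13. The cause of these turns was not tested beyond the array named.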
